A study of Mus musculus with 8 samples.

Results

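The 10 genes *Egr1*, *Egr2*, *Egr3*, *Nr4a1*, *Nr4a2*, *Nr4a3*, *Ier2*, *Dusp1*, *Zfp36* and *Btg2* were followed through the immune cells of the mouse brain, out of 32285 genes counted. They were selected on measured values, because summed counts of immediate-early genes were known to differ between hashtag groups of these libraries. Their levels by hashtag group and cell type are therefore given as a description, with no test. Only the comparisons between conditions, which did not choose them, were tested.

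These genes belong to the primary response, the set a cell transcribes soon after a stimulus without first making new protein. *Egr1*, *Egr2* and *Egr3* encode zinc-finger transcription factors, and *Nr4a1*, *Nr4a2* and *Nr4a3* encode orphan nuclear receptors that in lymphocytes are induced by antigen receptor signalling. The other members mostly limit a response: *Dusp1* encodes a phosphatase that inactivates MAP kinases, *Zfp36* encodes tristetraprolin, which binds AU-rich elements and speeds the decay of cytokine mRNAs, and *Btg2* encodes an antiproliferative protein that recruits the mRNA deadenylase. *Ier2* encodes a nuclear protein of the early response. Tissue dissociation, handling and cell sorting are also known to induce many of them in isolated cells. The study's methods describe homogenizing the brain and a Percoll step, and name no enzyme.

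CD45.2-positive cells were sorted from the brains of perfused mice and their transcripts were counted from the 5′ end on the 10x Genomics platform by unique molecular identifiers (UMIs). The 8 libraries held 1 library per condition: wild-type mice (WT; C57BL/6J) or *App* NL-G-F mice, each as water control, acute colitis (2% dextran sulphate sodium, DSS, for a week), chronic colitis (3 cycles of 2% DSS alternating with water) and food allergy (ovalbumin injected with alum and then given orally). In the *App* NL-G-F line the mouse's own *App* gene was edited to encode human-type amyloid-β together with familial Alzheimer's mutations, named Swedish, Arctic and Iberian, and no added promoter drives it. The labels give an age of 16 weeks for every library. The text of the study gives a younger age for the mice put through the treatments, so both ages may refer to different times. Cells of separate samples were marked with hashtag antibodies 4 to 7 before pooling, and which mouse carried which hashtag is not given in the sources used here. For *App* NL-G-F chronic colitis the study names fewer mice than the hashtag groups found, so some of those groups may share a mouse.

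In all, 50088 cells were kept, from 4874 to 7199 per library, with 25616824 to 54618574 UMIs in the kept cells and a median of 2777 to 4130 UMIs per cell. Cells fell into 30 hashtag groups, since hashtag 6 was absent from the WT food allergy and *App* NL-G-F acute colitis libraries. Of the cell barcodes, 47090 occurred in 1 library, 1448 in 2 and 34 in more than 2. Marker lists, none of which held a member, gated 3162 αβ T cells, 3999 B cells, 2136 group 2 innate lymphoid cells (ILC2), 2106 NK cells, 4702 neutrophils and 1015 macrophages, and left 47.1% of cells in no type. Genes outside the lists were read as a check. *Cd3e* had a UMI in 93.8% of αβ T cells and 2.05% of B cells, and *Cd79a* in 99.7% of B cells and 2.44% of αβ T cells. The macrophage gate was less clean: *Cd68* had a UMI in 65.9% and *Cd3e* in 13.2% of its cells, and 20.3% of them carried several hashtags and entered no hashtag group.

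The hashtags fell into 2 pairs, 4 with 5 and 6 with 7, that differed in cell makeup in every library. The pair with the larger share of gated macrophages is called the macrophage-rich pair below, a division made from the data and not one of the study's groups. The macrophage-rich pairs held 780 macrophages, 197 fibroblasts and 1185 type 1 dendritic cells among 27274 cells in 16 hashtag groups. The macrophage-poor pairs held 20 macrophages, 0 fibroblasts and 44 type 1 dendritic cells among 16473 cells in 14 hashtag groups. Both pairs of a library shared 1 reaction, so they shared its free RNA and its sequencing. The macrophage-rich pair was hashtags 6 and 7 in both control and both chronic colitis libraries, and hashtags 4 and 5 in the others.

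The promoters of the members are shown first, since their response elements are what the members are known to share. Windows of 250 bases before to 50 after a RefSeq start (GRCm38.p6) were read for 7 of the 10 members, in 11 windows. No window was found for *Egr3* and *Ier2*. *Egr1* was left out of this step, so its sites are not reported here. Capitals mark the cAMP response element TGACGTCA, its core site TGACG on either strand, and the CArG box to which serum response factor binds. The core site can lie within the full element, which then counts as 2 core sites. A single window is shown for each of the 6 members with a core site. *Egr2* had several such windows, each with a CArG box as well.
Dusp1, chr17:26508423-26508722, minus strand: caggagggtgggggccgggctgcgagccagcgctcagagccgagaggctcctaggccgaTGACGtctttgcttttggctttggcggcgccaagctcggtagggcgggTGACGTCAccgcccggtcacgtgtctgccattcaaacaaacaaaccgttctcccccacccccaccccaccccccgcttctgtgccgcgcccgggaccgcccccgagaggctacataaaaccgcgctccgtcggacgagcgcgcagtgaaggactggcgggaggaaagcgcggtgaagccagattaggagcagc
Btg2, chr1:134079106-134079405, minus strand: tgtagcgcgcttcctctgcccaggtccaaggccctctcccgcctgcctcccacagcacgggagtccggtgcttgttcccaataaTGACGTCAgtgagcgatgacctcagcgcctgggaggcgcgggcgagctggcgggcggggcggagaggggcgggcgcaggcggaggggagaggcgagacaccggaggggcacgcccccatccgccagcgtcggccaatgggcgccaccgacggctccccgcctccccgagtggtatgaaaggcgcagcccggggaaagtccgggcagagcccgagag
Nr4a1, chr15:101266596-101266895, plus strand: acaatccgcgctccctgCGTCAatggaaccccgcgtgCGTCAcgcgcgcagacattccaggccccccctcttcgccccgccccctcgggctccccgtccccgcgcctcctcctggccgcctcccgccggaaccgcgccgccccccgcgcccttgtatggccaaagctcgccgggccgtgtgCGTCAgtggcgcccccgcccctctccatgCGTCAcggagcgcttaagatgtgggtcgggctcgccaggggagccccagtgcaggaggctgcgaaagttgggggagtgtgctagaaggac
Nr4a2, chr2:57123954-57124253, minus strand: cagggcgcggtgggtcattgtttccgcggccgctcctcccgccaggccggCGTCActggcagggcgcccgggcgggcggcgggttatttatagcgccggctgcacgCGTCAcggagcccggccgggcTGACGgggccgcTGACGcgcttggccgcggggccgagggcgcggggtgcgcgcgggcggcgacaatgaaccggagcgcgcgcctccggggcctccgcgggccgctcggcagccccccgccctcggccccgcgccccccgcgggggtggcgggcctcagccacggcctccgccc
Nr4a3, chr4:48045055-48045354, plus strand: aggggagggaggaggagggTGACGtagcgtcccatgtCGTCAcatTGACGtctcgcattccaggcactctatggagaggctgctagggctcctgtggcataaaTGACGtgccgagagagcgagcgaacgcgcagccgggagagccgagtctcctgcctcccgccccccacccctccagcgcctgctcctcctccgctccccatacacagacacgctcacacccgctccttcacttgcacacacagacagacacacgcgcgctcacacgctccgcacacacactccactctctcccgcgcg
Egr2, chr10:67537619-67537918, plus strand: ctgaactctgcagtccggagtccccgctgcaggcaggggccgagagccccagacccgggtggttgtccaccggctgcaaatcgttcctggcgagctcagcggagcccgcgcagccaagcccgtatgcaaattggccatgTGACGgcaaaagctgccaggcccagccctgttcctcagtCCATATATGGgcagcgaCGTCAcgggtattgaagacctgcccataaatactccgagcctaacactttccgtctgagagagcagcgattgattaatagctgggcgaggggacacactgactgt

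A full cAMP response element was found in 2 of the 7 members, *Dusp1* and *Btg2*, against 1.79% of 32851 windows of all genes. A core site was found in 6 of the 7, all except *Zfp36*, against 20.8% of all windows. The windows of *Nr4a1*, *Nr4a2* and *Nr4a3* held 4 core sites each. A CArG box was found in *Egr2* and *Zfp36*, against 1.63% of all windows. The Egr binding sequence GCGTGGGCG was found in none of the 7 (0.612% of all windows) and its variant GCGGGGGCG in *Nr4a1* and *Zfp36* (2.91% of all windows). *Egr2* was counted over several windows, while the shares over all genes are per window. Such matches describe the letters of these windows and are not evidence of binding.

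In αβ T cells the summed level of the 10 genes separated the pairs without overlap. Levels are UMIs per 1000000 UMIs of the gated cells (CPM), and hashtag groups with at least 20 gated cells were used. In the 16 macrophage-rich groups the sum ran from 1443 to 2824 CPM, with a median of 2145 and a mean of 2098 ± 356 (SD). In the 11 macrophage-poor groups it ran from 353 to 682 CPM, with a median of 566 and a mean of 533 ± 110 (SD). Summed over all cells of each pair, the level was 3.81 times as high in the macrophage-rich pairs (95% exact interval of the counts 3.65 to 3.97), and it was higher there in 8 of 8 libraries, by 1.75-fold to 5.73-fold. Such intervals cover counting error only.

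**Figure D1:**
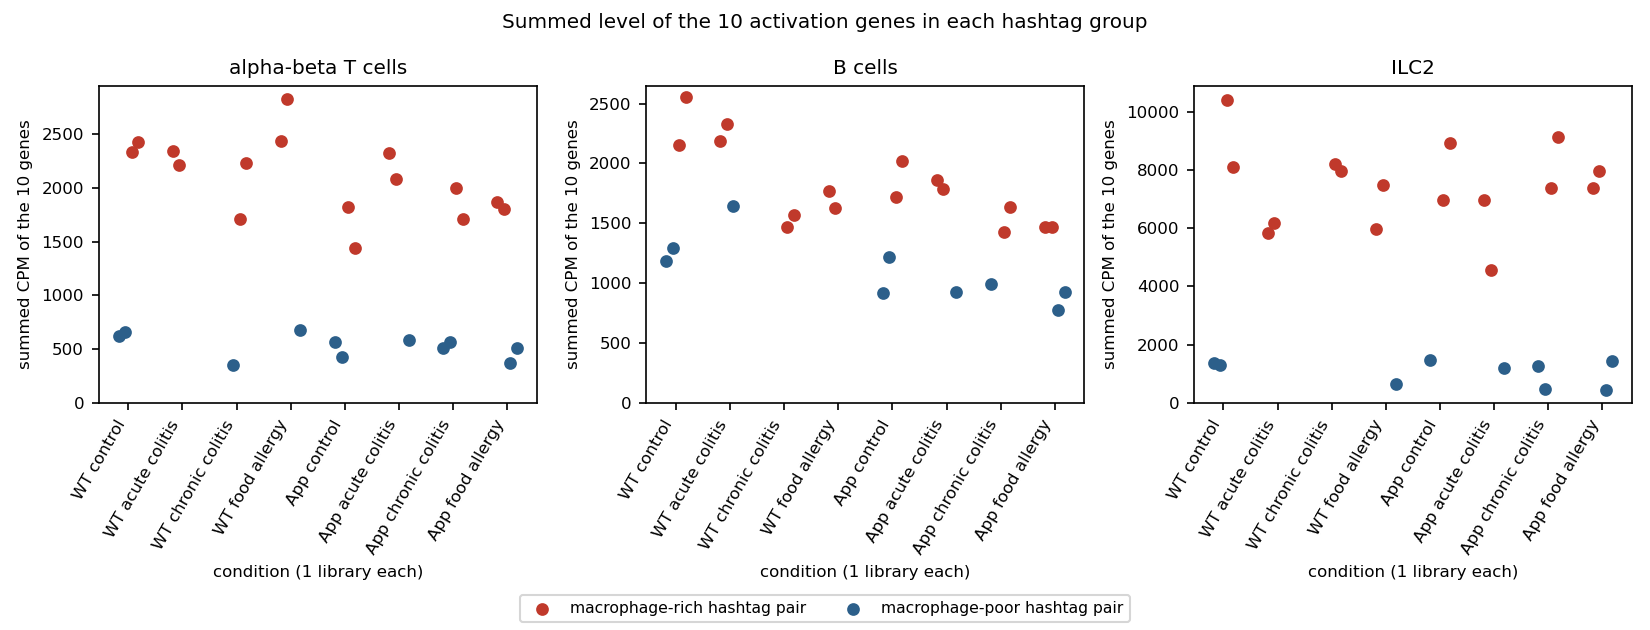
Each point is 1 hashtag group with at least 20 gated cells, placed by condition on the x axis and by the summed CPM of the 10 genes on the y axis, for αβ T cells, B cells and ILC2. Red points (macrophage-rich pairs) lie above blue points (macrophage-poor pairs) in all 3 panels within each library that has both, and without any overlap in αβ T cells (1443 to 2824 against 353 to 682 CPM) and ILC2 (4557 to 10390.3 against 440 to 1489 CPM).

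Among the limiting genes in αβ T cells, *Dusp1* differed most. It ran from 294 to 924 CPM (median 638) in the macrophage-rich groups and from 10.1 to 86.2 CPM (median 37.5) in the macrophage-poor groups, a pooled ratio of 16.3 (14.2 to 18.85). *Btg2* ran from 354 to 793 CPM (median 533) against 147 to 274 CPM (median 224), a pooled ratio of 2.32. Neither gene overlapped between the pairs. *Zfp36* ran from 103 to 310 CPM (median 209.9) against 44.6 to 126 CPM (median 86.2), so its groups overlapped, although its pooled level was higher in the macrophage-rich pair of 8 of 8 libraries. *Ier2* likewise overlapped, at 179 to 491 CPM (median 340.1) against 99.8 to 204 CPM (median 145).

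The Nr4a receptors were near the lower limit of detection in macrophage-poor T cells. *Nr4a1* ran from 31.8 to 282 CPM (median 146) in the macrophage-rich groups and from 0 to 31.4 CPM (median 3.71) in the macrophage-poor groups, a pooled ratio of 11.2 (8.71 to 14.5). *Nr4a2* ran from 28.3 to 122 CPM (median 76.3) against 0 to 14.85 CPM (median 7.03), a pooled ratio of 9.16 (6.74 to 12.7). For both receptors the groups did not overlap, *Nr4a1* by a margin of less than 1 CPM. *Nr4a3* overlapped, at 10.6 to 75.6 CPM (median 34.4) against 0 to 35.3 CPM (median 5.86), a pooled ratio of 3.45 (2.60 to 4.64).

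The Egr factors were low in αβ T cells. *Egr1* ran from 17.7 to 264 CPM (median 75.0) in the macrophage-rich groups and from 0 to 43.2 CPM (median 12.9) in the macrophage-poor groups, a pooled ratio of 4.47 (3.61 to 5.56). *Egr2* and *Egr3* were represented by 79 and 35 UMIs in all αβ T cells with a hashtag, too few to order the hashtag groups. Of the 8 members with enough counts for the comparison, 4 did not overlap and were higher in the macrophage-rich pairs, against 0.37% of 5945 genes in αβ T cells; since the members were chosen for this pattern, nothing is read from that count. Split by coreceptor, the pooled *Dusp1* level was 14.2 times as high in macrophage-rich CD4 T cells and 21.9 times as high in CD8 T cells, so both held the difference.

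**Figure D2:**
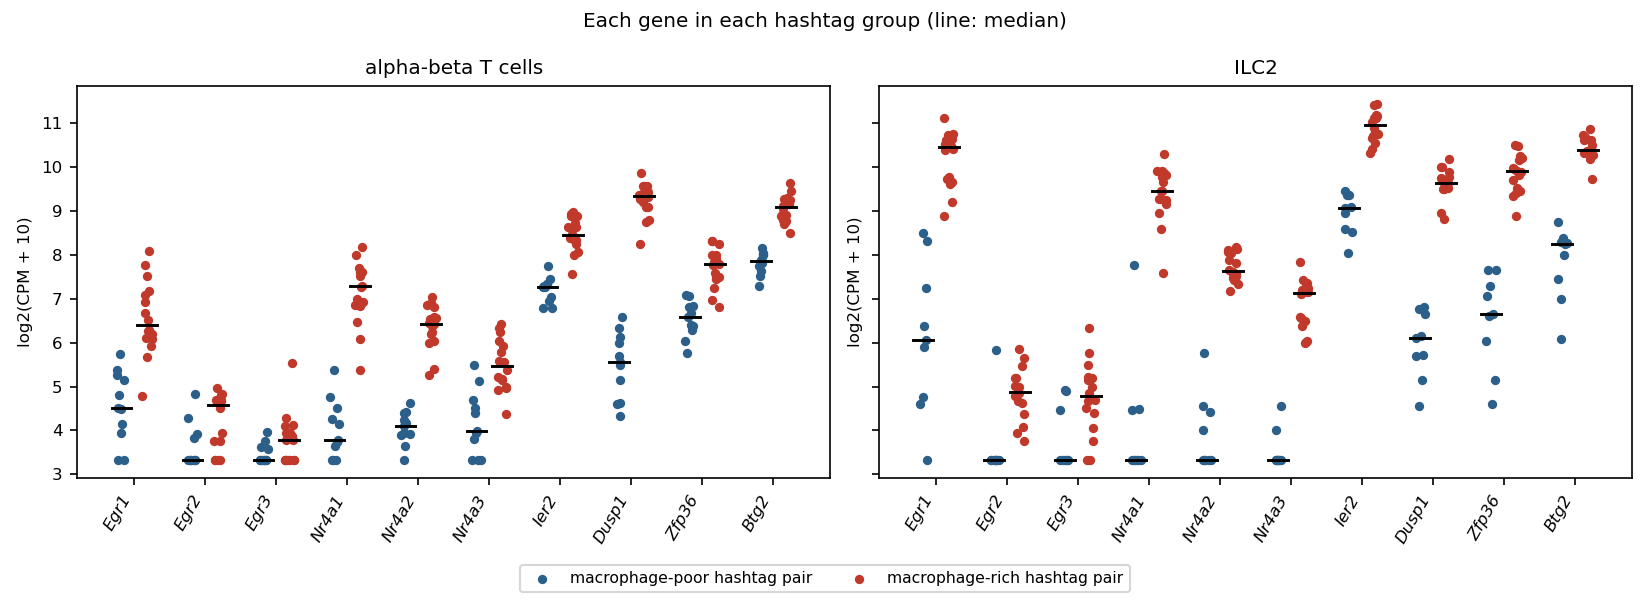
Each point is 1 hashtag group, the y axis is log2(CPM + 10), and the columns are the 10 genes in αβ T cells (left) and ILC2 (right), with black lines at the medians. *Dusp1* separates the pairs fully in both cell types, whereas *Egr3* overlaps in both.

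In B cells the same pairs differed less, and *Zfp36* did not follow them. The summed level ran from 1424 to 2557 CPM (median 1743, mean 1814 ± 343 SD) in 16 macrophage-rich groups and from 773 to 1640 CPM (median 995, mean 1096 ± 265 SD) in 9 macrophage-poor groups. The groups overlapped, and the pooled ratio was 1.75 (1.68 to 1.83). *Dusp1* was the only member without overlap, at 106 to 276 CPM (median 187) against 7.58 to 36.6 CPM (median 23.6), a pooled ratio of 7.82 (5.99 to 10.4). That was 1 of 7 members compared, against 0.149% of 6042 genes in B cells.

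*Zfp36* in B cells ran from 284 to 674 CPM (median 366) in the macrophage-rich groups and from 319 to 525 CPM (median 394) in the macrophage-poor groups. Its pooled ratio was 0.933 (0.867 to 1.004), and within libraries the ratio lay between 0.979 and 1.12. *Btg2* and *Ier2* were 1.60 and 1.53 times as high in the macrophage-rich pairs. *Nr4a1* ran from 17.7 to 278 CPM (median 97.3) against 7.58 to 85.6 CPM (median 20.3), and *Egr1* from 138 to 441 CPM (median 269) against 17.7 to 342 CPM (median 50.1). *Nr4a2* had 65 UMIs in 2620 macrophage-rich B cells and 0 in 976 macrophage-poor B cells, at least 6.20-fold higher with a floor of 3 counts over the pair. The highest macrophage-poor *Egr1* value came from WT acute colitis hashtag 6, a group of 21 B cells.

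In ILC2, tissue-resident lymphocytes that respond to alarmins with type 2 cytokines, the members were high and the separation was wide. The summed level ran from 4557 to 10390.3 CPM (median 7430, mean 7463 ± 1425 SD) in 16 macrophage-rich groups. It ran from 440.3 to 1489 CPM (median 1274, mean 1073 ± 427 SD) in 9 macrophage-poor groups. The pooled ratio was 7.004 (6.62 to 7.42), with 4.72-fold to 10.7-fold in the 6 libraries that had ILC2 groups in both pairs. Of 8 members compared, 7 did not overlap, all except *Nr4a1*, against 0.448% of 6027 genes in ILC2.

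*Egr1* in ILC2 ran from 465 to 2211 CPM (median 1393) in the macrophage-rich groups and from 0 to 354 CPM (median 56.9) in the macrophage-poor groups. *Dusp1* ran from 438 to 1152 CPM (median 785) against 13.4 to 102 CPM (median 59.0), and *Zfp36*, unlike in B cells, from 463 to 1450 CPM (median 947) against 14.3 to 192 CPM (median 91.3). The groups of all 3 genes lay apart. *Ier2* ran from 1277 to 2774 CPM (median 1982) against 254 to 693 CPM (median 531), and *Btg2* from 846 to 1875 CPM (median 1334) against 57.4 to 421 CPM (median 295). Both kept a substantial level in macrophage-poor ILC2, where the Nr4a receptors were nearly absent.

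*Nr4a1* in ILC2 ran from 181 to 1255 CPM (median 692) in the macrophage-rich groups, and 6 of 9 macrophage-poor groups had none. The exception was *App* NL-G-F control hashtag 4, at 207 CPM, which alone made the groups overlap. *Nr4a2* ran from 134 to 282 CPM (median 189) against 0 to 44.3 CPM, with 5 of 9 groups at 0. *Nr4a3* ran from 53.2 to 218 CPM (median 130) against 0 to 13.4 CPM, and its pooled ratio of 44.2 rested on 3 UMIs in the macrophage-poor pairs (15.05 to 215). *Egr2* and *Egr3* were again low, at means of 20.7 ± 12.2 and 21.0 ± 18.2 CPM (SD, n = 16) in the macrophage-rich groups.

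NK cells resembled αβ T cells in level. Their summed level ran from 1612 to 3469 CPM (mean 2322 ± 586 SD, n = 16) in the macrophage-rich groups and from 382 to 1131 CPM (mean 592 ± 209 SD, n = 11) in the macrophage-poor groups. *Dusp1* ran from 332 to 867 CPM against 0 to 34.1 CPM, a pooled ratio of 30.4 (23.35 to 40.2). *Ier2* and *Btg2* also lay apart, which made 3 of 8 members against 0.26% of 6145 genes in NK cells. *Egr2* had few UMIs, with 22 in 1079 macrophage-rich and 29 in 888 macrophage-poor NK cells, a ratio of 0.564 (0.309 to 1.02).

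In neutrophils and monocytes the Egr and Nr4a genes came close to 0 in the macrophage-poor groups. All 1780 macrophage-poor neutrophils came from *App* NL-G-F libraries, 1171 of them from the acute colitis library, and 0 from WT libraries, while the 2284 macrophage-rich neutrophils came from both genotypes. Pooled ratios therefore mix the pair with the genotype, and ratios within the 4 *App* NL-G-F libraries are given beside them. Depth differed too. In *App* NL-G-F acute colitis it was 13138 UMIs per cell in macrophage-poor hashtag 7 and 3632 and 2985 in macrophage-rich hashtags 4 and 5. In *App* NL-G-F control it was 2404 and 3216 in macrophage-poor and 10425.5 and 11234 in macrophage-rich groups. *Il1b*, which the study ties to mature neutrophils, averaged 72.8 CPM in macrophage-poor and 2700 CPM in macrophage-rich groups. The part of depth or maturity was not tested. *Egr1* had 3983 UMIs in macrophage-rich and 19 in macrophage-poor neutrophils, a pooled ratio of 245 (157 to 408) and ratios of 70.05 to 262 within libraries. *Nr4a1* had 8496 and 45 UMIs, a pooled ratio of 221 (165 to 303) and ratios of 120 to 185.5 within libraries.

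*Dusp1*, *Zfp36* and *Btg2* stayed detectable in macrophage-poor neutrophils, with ratios within libraries of 5.40 to 9.16, 2.81 to 8.45 and 1.51 to 17.95. The summed ratio within libraries ran from 3.53 to 10.05. All 7 members compared lay apart, in a cell type where 3.2% of 3503 genes in neutrophils did so, with WT groups on the macrophage-rich side alone.

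Monocytes had *Dusp1* at 191 to 2209 CPM (median 1028) in 16 macrophage-rich groups and 4.25, 10.7 and 17.6 CPM as the lowest, mean and highest of 5 macrophage-poor groups, which were all from *App* NL-G-F libraries. The pooled ratio of *Dusp1* was 84.6 (62.1 to 118), with 62.4 to 143 within the 4 libraries compared, while that of *Ier2* was 3.11, with 2.69 to 4.69 within libraries. Monocyte depth went the other way, at 8794 ± 1530 UMIs per cell against 10926.5 ± 1633 (SD). Type 1 dendritic cells, which cross-present antigen, held a pooled sum of 4344 CPM in 1185 macrophage-rich cells and 669 CPM in 44 macrophage-poor cells, with no library in which both pairs had enough of them to compare. The pooled ratio was 2.71 in plasma cells, which secrete antibody, and 1.47 in developing B cells. Migratory dendritic cells had a ratio of 0.955 (0.696 to 1.35) that rested on 4 macrophage-poor cells.

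Macrophages could be described in the macrophage-rich pairs alone, since the other pairs held 20 of them. Over 13 hashtag groups the summed level ran from 7432 to 10821 CPM, with a mean of 9080 ± 1271 (SD). *Dusp1* ran from 1279 to 2489 CPM (median 2094), *Zfp36* from 1396 to 2276 CPM (median 1876), *Btg2* from 1414 to 2261 CPM (median 1696), *Ier2* from 1130 to 1948 CPM (median 1588) and *Egr1* from 870 to 1840 CPM (median 1434). *Egr2*, low in the lymphocytes, ran from 56.4 to 243 CPM (median 157) here.

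**Figure D3:**
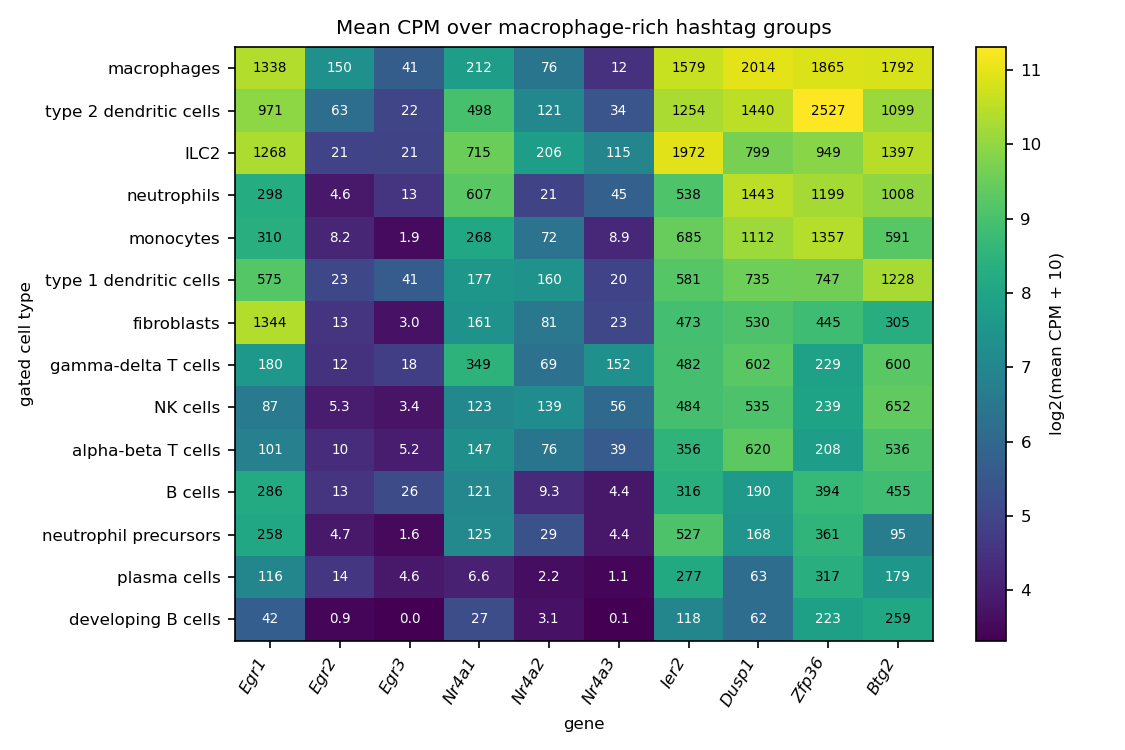
Rows are the 14 gated cell types with at least 3 macrophage-rich hashtag groups (mast cells are not among them) and columns the 10 genes, and each cell gives the mean CPM over macrophage-rich hashtag groups with colour on a log2(mean CPM + 10) scale. Read down a column, *Egr2* has its highest mean in macrophages (150 CPM), *Nr4a2* has its highest mean in ILC2 (206 CPM), that of *Nr4a3* in γδ T cells (152 CPM) rests on 1 group at 1526 CPM, and plasma cells and developing B cells are at the bottom for the sum.

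Cell types with at least 3 macrophage-rich hashtag groups of 20 cells were ordered, which left out mast cells among others. Across these 14 types the mean sum ordered macrophages (9080 CPM), type 2 dendritic cells (8028), ILC2 (7463), neutrophils (5177), monocytes (4413), type 1 dendritic cells (4287), fibroblasts (3379), γδ T cells (2693), NK cells (2322), αβ T cells (2098), B cells (1814), neutrophil precursors (1573), plasma cells (980) and developing B cells (736). Every neighbouring pair in that order overlapped in its hashtag groups. Mast cells, with 2 groups, stood above all 14, at sums of 19543.5 and 26039 CPM. Neighbours were apart for 3 genes in all, for example *Egr1* between type 2 dendritic cells (892 to 1015 CPM, 3 groups) and type 1 dendritic cells (234 to 777 CPM, 16 groups). Among the 14 types the order differed by gene: *Nr4a1* was highest in ILC2 (715 ± 261 CPM, SD) and neutrophils (607 ± 155), and *Egr1* in fibroblasts (1344 ± 295), macrophages (1338 ± 317) and ILC2 (1268 ± 488). *Zfp36* was highest in type 2 dendritic cells (2527 ± 306 CPM, n = 3). The mast cell means were higher still for these genes, at 2165 CPM for *Nr4a1*, 7519 CPM for *Egr1* and 3141 CPM for *Zfp36*. These levels compare a gene between cell types and not genes with each other, as UMIs were not scaled by capture of each transcript.

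The share of cells with a transcript differed between the pairs as well. Each cell with at least 1000 UMIs was thinned to 1000 UMIs. *Dusp1* then had a UMI in 41.0% of 1373 macrophage-rich αβ T cells (95% exact binomial interval 38.4 to 43.7) and 4.84% of 1549 macrophage-poor ones (3.83 to 6.03), against 65.1% and 10.6% without thinning. In macrophage-rich ILC2 *Ier2* had a UMI in 72.8% of cells, *Btg2* in 67.7%, *Egr1* in 50.15% and *Nr4a1* in 37.7%, and in macrophage-poor ILC2 in 36.9%, 18.9%, 6.195% and 1.475% (1673 and 339 cells). In B cells the shares for *Zfp36* were 29.3% and 33.4% (2586 and 957 cells), pooled over libraries that contribute unequally to the pairs; its CPM was higher in the macrophage-rich pair of 5 of 6 libraries. Median depth before thinning was 2848 and 2974 UMIs in αβ T cells, 2843 and 3224 in ILC2, and 2696 and 2086 in B cells.

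**Figure D4:**
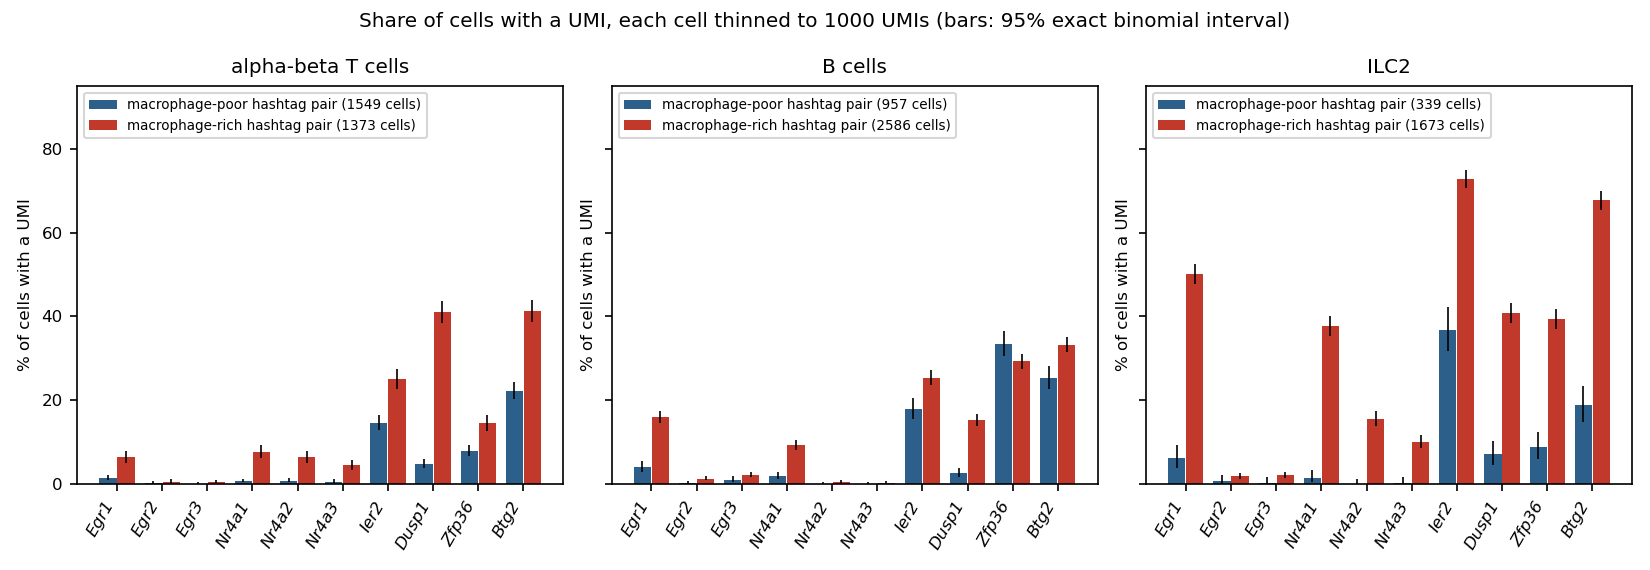
Bars give the share of cells with a UMI of each gene after thinning to 1000 UMIs, for αβ T cells, B cells and ILC2, with 95% exact binomial intervals as error bars. Red bars exceed blue bars for *Dusp1* in all 3 panels (41.0% against 4.84% in αβ T cells), while the shares of *Zfp36* in B cells, pooled over libraries, are 29.3% in red and 33.4% in blue.

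At least 1 of the 10 genes had a UMI in 79.1% of macrophage-rich and 42.2% of macrophage-poor αβ T cells, and at least 3 genes in 17.5% and 1.55%. In ILC2 the corresponding shares were 96.5% and 53.4% for at least 1 gene and 68.1% and 5.31% for at least 3. In macrophages 97.5% of 717 cells had at least 1 gene and 44.1% at least 5. Within macrophage-rich ILC2, *Nr4a1* was seen in 45.5% of the 839 cells with *Egr1* and 29.9% of the 834 cells without it, whereas *Dusp1* was seen in 41.4% and 40.2%. Within macrophage-rich B cells, *Nr4a1* was seen in 17.4% of cells with *Egr1* and 7.78% of cells without. Cells are not replicates, so these shares carry no test.

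Several values moved with the pairs and others did not. UMIs per αβ T cell were 3503 ± 405 (SD) in the macrophage-rich and 3350 ± 328 in the macrophage-poor groups, and mitochondrial UMIs were 1.06% ± 0.115 and 0.985% ± 0.0664. B cells were deeper in the macrophage-rich groups (2988 ± 254 against 2441 ± 393 UMIs per cell), and ILC2 were not (2938 ± 519 against 3168 ± 403). The summed level of 6 macrophage markers in αβ T cells was 0 to 218 CPM (median 11.4) in the macrophage-rich and 0 to 6.73 CPM (median 3.23) in the macrophage-poor groups. In ILC2 it was 0 to 29.1 CPM (median 5.62) and 0 to 20.1 CPM (median 0), and the 6 fibroblast markers came to 0 to 20.6 CPM in ILC2 and were at 0 in all 9 macrophage-poor groups. The part of these values in the result was not tested, nor was that of dissociation, sorting or order of handling.

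Free RNA, read from barcodes below the cell calls, held the members at a sum of 2460 to 4745 CPM in the WT and 1772 to 1894 CPM in the *App* NL-G-F libraries. Both pairs of a library shared 1 free RNA, and the amount that cells of each pair took up was not measured. Macrophage-poor αβ T cells, at 353 to 682 CPM in sum, lay below the sum in the free RNA in every library with such a group. The part of free RNA in the difference between the pairs was not tested. With 5% of UMIs subtracted in the proportions of the free RNA, the mean sum of macrophage-poor αβ T cells went from 533 to 429 CPM and that of the macrophage-rich ones from 2098 to 2057 CPM, both within 1 SD of their hashtag groups. Within the macrophage-rich pairs the sum in αβ T cells did not go with that of every other cell type. Its Pearson correlation over 16 hashtag groups was 0.593 with the sum in NK cells and −0.29 with that in ILC2. These points share libraries and depth. No correlation of sums between cell types is given over both kinds of pair, which lie apart.

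Other genes of the early response differed between the pairs as well. The lists were chosen with earlier results of these data known, so their counts are descriptions and not added support. In αβ T cells the mean of *Fos* was 249 CPM in the macrophage-rich and 10.4 CPM in the macrophage-poor groups, that of *Junb* 1491 and 196 CPM, and that of *Ppp1r15a*, whose product helps to reverse the integrated stress response, 167 and 21.8 CPM. Of the 5 other lists, the early transcription factors did not overlap in 3 of 10 genes compared (*Fos*, *Fosl2*, *Junb*), the NF-κB and activation genes in 4 of 10 (*Tnfaip3*, *Cd69*, *Ppp1r15a*, *Gadd45b*) and the relatives of *Dusp1*, *Zfp36* and *Btg2* in 2 of 11 (*Dusp4*, *Dusp5*). None of 12 partners and upstream factors, among them *Nab1*, *Srf* and *Creb1*, and none of 3 heat-shock genes lay apart. The median log2 ratio between the pairs was 1.27 for the members, 0.08 for the partners and upstream factors and −0.04 for the heat-shock genes, against −0.01 over all genes compared.

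In ILC2 the same lists gave 4 of 13 early transcription factors (*Fos*, *Jun*, *Junb*, *Jund*), 5 of 9 NF-κB and activation genes, 2 of 10 relatives (*Dusp5*, *Zfp36l1*), 0 of 12 partners and upstream factors and 0 of 4 heat-shock genes. *Gadd45b*, a stress sensor that activates MAP kinase signalling, stood at 425 CPM in macrophage-rich and 9.63 CPM in macrophage-poor ILC2. *Myc* went the other way in ILC2, at 64.0 against 132 CPM. The genes whose log2(CPM + 10) most resembled the members' mean over 27 hashtag groups of αβ T cells were *Gadd45b* (Pearson r of 0.955), *Junb* (0.939), *Fos* (0.934), *Ppp1r15a* (0.92) and *Rgs1* (0.914). Those groups are of both kinds of pair, so the correlations include the gap between the pairs, and nothing more is read from them. In macrophages, over 13 groups of 1 kind of pair, the most alike genes were *Macf1* (0.849), *Abl2* (0.846), *Ppp1r15a* (0.821), *4632427E13Rik* (0.8) and *Ptbp3* (0.794). Of these, *Ppp1r15a* alone was also in the list for αβ T cells.

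Whether colitis, food allergy or the *App* knock-in moved the members was tested with edgeR's quasi-likelihood test on counts summed per hashtag group. Hashtag groups of a condition come from 1 library, so condition and library cannot be told apart and the p-values measure the spread between hashtag groups. The 3 comparisons in each genotype share 1 control library. In WT acute colitis, chronic colitis and food allergy, 177, 387 and 440 cells were macrophage-poor, against 2935 in WT control. Fits of both pairs in the WT comparisons therefore mix the pair with the condition. A member counts as changed at a Benjamini-Hochberg adjusted p below 0.05 over all genes tested. On simulated counts of WT chronic colitis against WT control, edgeR called 33% of genes changed 2-fold in αβ T cells and 34% in ILC2. It called 83% of genes changed 4-fold in both types. The SE of the log2 difference of *Dusp1* in αβ T cells ran from 1.05 to 1.2 over the 7 comparisons. Changes of members could therefore be missed, and a count of 0 does not show that they were unmoved.

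In αβ T cells 0 of 8 members changed in any of the 7 comparisons by edgeR, 1 had an unadjusted p below 0.05, and DESeq2 also called 0. That count depended on the filter on low counts. Without it edgeR made 11 member calls, all higher than control. Of these, 6 were in WT acute colitis, 3 in WT food allergy, 1 in *App* NL-G-F food allergy and 1 in WT chronic colitis. WT acute colitis had macrophage-rich groups alone and WT control had both kinds, so its calls mix the pair with the condition. In the macrophage-rich groups the mean sum was 2278, 1968 and 2630 CPM in WT acute colitis, chronic colitis and food allergy, against 2380 CPM in WT control. In the order acute colitis, chronic colitis and food allergy, 2.14%, 2.28% and 2.01% of 5927 genes changed in WT mice and 0.0506%, 0.0675% and 0.0337% in *App* NL-G-F mice, and 2.7% changed between the 2 control libraries. The nearest member was *Egr1* in WT food allergy, at 135 and 264 CPM in the macrophage-rich and 7.84 CPM in the macrophage-poor groups. In WT control *Egr1* stood at 40.9 and 58.8 CPM in the macrophage-rich and 31.3 and 17.9 CPM in the macrophage-poor groups, so the groups of both libraries overlapped. The log2 difference was 2.19 (SE 0.87, edgeR adjusted p = 0.332). The pairs were unequally represented in the 2 libraries, and with the macrophage-rich pair as a term, a fit chosen after seeing the data, it was 1.496 (SE 0.58, edgeR adjusted p = 0.288). Of the other lists, *Dnajb1* and *Hsph1*, heat-shock chaperone genes, fell in WT chronic colitis, with log2 differences of −1.705 and −1.455 (edgeR adjusted p of 0.00553 and 0.0264). *Atf3*, a stress-induced transcription factor, and *Cd83*, an activation marker, rose in WT food allergy by 4.54 and 3.16 (edgeR adjusted p of 0.0152 and 0.0458). Both were low and differed between the pairs. The means were 25.1 CPM in macrophage-rich and 0.107 CPM in macrophage-poor groups for *Atf3*, and 22.5 and 9.00 CPM for *Cd83*. WT food allergy had fewer macrophage-poor groups than its control, and that fit held no term for the pair.

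In B cells *Zfp36* was the 1 member of 7 that changed. It stood at 520.1, 488, 511 and 525 CPM in WT control hashtags 6, 7, 4 and 5 and at 290 and 313 CPM in WT chronic colitis hashtags 6 and 7, so the groups lay apart. The log2 difference was −0.71 (SE 0.18, edgeR adjusted p = 0.03145), where 1.99% of 6773 genes in B cells changed. With DESeq2 *Zfp36* was also called in WT food allergy and in *App* NL-G-F chronic colitis, where edgeR gave log2 differences of −0.69 (adjusted p = 0.155) and −0.64 (adjusted p = 0.229). In WT food allergy *Zfp36* stood at 284 and 299 CPM, and in *App* NL-G-F chronic colitis at 318, 319 and 351 CPM against 381 to 674 CPM in *App* NL-G-F control, all below their controls. The call in WT chronic colitis was lost without either of its own hashtag groups, without WT control hashtag 6 or 7 and without WT food allergy hashtag 4. It was also lost with hashtag groups of at least 50 cells, with the order-of-magnitude cutoff alone in calling cells, and without the filter on low counts.

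The other comparisons in B cells changed 0 members by edgeR, where 1.37% of genes changed in WT acute colitis, 0.62% in WT food allergy, 0%, 0.0591% and 0% in *App* NL-G-F acute colitis, chronic colitis and food allergy, and 1.52% between the controls. Unadjusted p-values below 0.05 were found for *Zfp36* in both chronic colitis and both food allergy comparisons and for *Nr4a1* between the controls, at a log2 difference of −1.61 (SE 0.63, edgeR adjusted p = 0.401). *Dusp10*, a phosphatase related to *Dusp1*, rose in WT chronic colitis by 1.08 (adjusted p = 0.00602). In ILC2 0 of 8 members changed by edgeR with both pairs fitted together, none had an unadjusted p below 0.05, and DESeq2 called 0, while without the filter on low counts edgeR made 8 member calls. Of 5106 genes in ILC2, 1.84%, 2.19% and 1.53% changed in the WT comparisons, 0% in each *App* NL-G-F comparison and 1.59% between the controls. *Tob1*, an antiproliferative relative of *Btg2*, fell in ILC2 of WT chronic colitis and WT food allergy, with log2 differences of −1.504 and −1.53 (edgeR adjusted p of 0.00538 and 0.00507), and *Hsph1* fell in WT chronic colitis (−2.09, adjusted p = 0.00241). The mean of *Tob1* was 116 CPM in macrophage-rich and 153 CPM in macrophage-poor ILC2. WT chronic colitis had macrophage-rich ILC2 groups alone, and WT food allergy had fewer macrophage-poor groups than WT control. These calls therefore mix the pair with the condition, as the fit held no term for the pair.

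With both pairs in a fit, the spread between pairs enters the error, so ILC2 were also fitted within the 16 macrophage-rich groups, a choice made after the data had been seen. *Ier2* then stood at 1277 and 1352 CPM in WT acute colitis against 2719 and 2073 CPM in WT control, and at 1891 and 1489 CPM in *App* NL-G-F acute colitis against 2282 and 2774 CPM in *App* NL-G-F control. Its share of UMIs fell in both, with log2 differences of −0.75 (SE 0.13, edgeR adjusted p = 0.00026) and −0.55 (SE 0.14, edgeR adjusted p = 0.024). The ILC2 were deeper in acute colitis, at 3558 and 3743 UMIs per cell against 2077 and 2025 in WT control. In *App* NL-G-F mice depth was 2759 and 2807 UMIs per cell in acute colitis and 2398 and 2291 in control. A lower CPM need not mean fewer transcripts per cell, and the part of depth was not tested. *Zfp36* fell in WT acute colitis (log2 difference of −0.95, SE 0.25, adjusted p = 0.0157), from 1450 and 1409 CPM to 640 and 726 CPM. *Egr1* fell in *App* NL-G-F acute colitis (log2 difference of −1.17, SE 0.31, adjusted p = 0.04445), from 1620 and 1688 CPM to 863 and 585 CPM. *Nr4a1* was lower in *App* NL-G-F control than in WT control, at 373 and 610 against 1255 and 954 CPM, a log2 difference of −1.09 (SE 0.29, adjusted p = 0.0467).

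These were 2, 2 and 1 of 10 members, all lower, where 6.54% of 5655 genes changed in WT acute colitis, 1.95% in *App* NL-G-F acute colitis and 1.86% between the controls. The other comparisons changed 0 members by edgeR, with 2 members at an unadjusted p below 0.05 in each of WT food allergy and WT chronic colitis, 1 in *App* NL-G-F chronic colitis and 0 in *App* NL-G-F food allergy. There, 5.45%, 5.41%, 2.05% and 0.584% of all genes changed. With each hashtag group left out in turn, the fall of *Ier2* in WT acute colitis was called in 16 of 16 fits (highest adjusted p of 0.0152). *Zfp36* was called in 14 of 16 and lost without either WT acute colitis group. *Ier2* in *App* NL-G-F acute colitis was lost without hashtag 5 of that library or hashtag 7 of its control. *Egr1* was called in 13 of 16 and *Nr4a1* in 10 of 16.

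**Figure D5:**
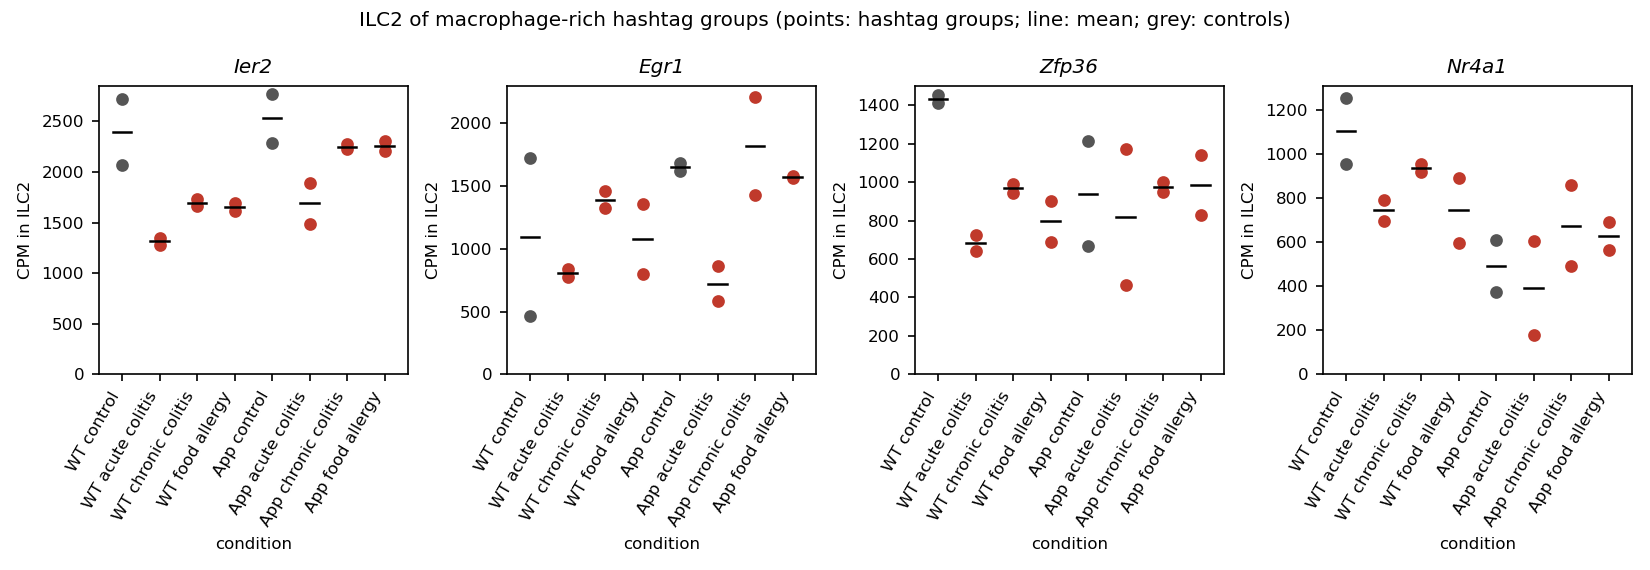
Points are the 2 macrophage-rich hashtag groups of each library and black lines their means, with CPM in ILC2 on the y axis and the 8 conditions on the x axis for *Ier2*, *Egr1*, *Zfp36* and *Nr4a1*; control groups are grey. *Ier2* in WT acute colitis (1277 and 1352 CPM) lies below WT control (2073 and 2719 CPM), and *Nr4a1* lies lower in *App* NL-G-F control (373 and 610 CPM) than in WT control (954 and 1255 CPM).

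In macrophages 0 of 9 members changed by edgeR or DESeq2 in the 6 comparisons that could be made, the *App* NL-G-F food allergy library having no macrophage group of 20 cells. The share of 3004 genes in macrophages that changed was 1.17%, 0.699% and 0.166% in WT acute colitis, chronic colitis and food allergy, 0.466% and 0% in *App* NL-G-F acute and chronic colitis, and 0.632% between the controls. In *App* NL-G-F acute colitis 5 of 9 members had an unadjusted p below 0.05. *Egr1* there stood at 869.6 and 879 CPM against 1106 and 1550 CPM in control, a log2 difference of −0.68 (SE 0.24, edgeR adjusted p = 0.313), and *Ier2* at 1335 and 1320 against 1840 and 1948 CPM, a difference of −0.60 (SE 0.21, adjusted p = 0.313). The groups lay apart for both genes, and neither difference passed the correction. The median over the members was −0.50, against −0.02 over all genes.

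The difference between the genotypes in the effect of a treatment was tested as an interaction. It changed 0 members in αβ T cells, B cells, ILC2 and macrophages by edgeR and by DESeq2. *Egr2* in macrophages (acute colitis, log2 difference of −2.385, SE 0.64, edgeR adjusted p = 0.171) was the only member with an unadjusted p below 0.05 in these fits. Without the filter on low counts, edgeR called that interaction too (−2.375, adjusted p = 0.0406), along with 2 in αβ T cells, 1 in B cells and 2 in ILC2. With the macrophage-rich pair as a term, a fit chosen after seeing the data, more members of αβ T cells had an unadjusted edgeR p below 0.05. They were *Nr4a3* and *Btg2* in chronic colitis (0.00777 and 0.033) and *Zfp36* in food allergy (0.00886). Their adjusted p-values were 0.214, 0.469 and 0.286, so none changed. For acute colitis, chronic colitis and food allergy, 1.27%, 1.75% and 1.13% of genes had a changed effect in αβ T cells, 0.694%, 0.827% and 0.546% in B cells, and 0.646%, 0.901% and 0.353% in ILC2. In macrophages the shares were 0.366% for acute and 0.433% for chronic colitis. *Egr2* stood at 56.4 and 128 CPM in macrophages after acute colitis in *App* NL-G-F mice, against 199 and 171 CPM in the control, and at 243 and 143 CPM in WT acute colitis against 96.0 and 58.1 CPM in WT control. The groups lay apart in opposite directions in the 2 genotypes, but the control groups were small. They held 37 and 24 macrophages in WT control, at 1971 and 2869 UMIs per cell, and 37 and 22 in *App* NL-G-F control. The WT control values thus rest on few UMIs of *Egr2*, and nothing is read from the separation.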

How the data were processed

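CD45.2-positive brain cells of 8 conditions were sequenced, with 1 library each, by 10x 5′ chemistry. The authors deposited raw UMI counts per gene and barcode, together with hashtag antibody counts; the submitters' processing notes name Cell Ranger 6.1.2, while a file header names another major version, and the alignment settings are not given in the sources used here. Cells were called from all barcodes by an order-of-magnitude cutoff for 3000 expected cells and by testing barcodes of 500 or more UMIs for departure from the ambient RNA (barcode ranks 45000 to 90000, 1000 simulations, FDR 0.01). A kept cell had 200 or more genes and no more than 5% of its UMIs from mitochondrial genes, and cells with several hashtags were left out of hashtag groups, which also removes doublets between hashtags; no doublet caller was run. Types were gated by at least 2 markers of a list and a lead of 2 over every other of 22 lists.

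Counts were summed per type and hashtag group of at least 20 cells. The barcode of a hashtag is not tied to a mouse in the sources used here, so hashtag groups may be technical or biological replicates; the study's legend names fewer *App* NL-G-F chronic colitis mice than hashtag groups found, and where groups share a mouse the p-values are too small. Genes were named as the 10 members, called genes of the 5 pathway lists (59 genes) and the 5 genes most like the members. Genes with a mean of at least 20 CPM entered the counts of groups that did not overlap, and ratios and likeness used log2(CPM + 10). Conditions were compared by edgeR 4.0.16 (quasi-likelihood, TMM, all hashtag groups of a type in 1 fit, Benjamini-Hochberg) and, as an alternative, DESeq2 1.42.0, in R 4.3.3. The remaining steps used Python 3.11.15, numpy 2.4.6, scipy 1.17.1, pandas 2.3.3 and matplotlib 3.10.9. The scripts were tested on simulated data. Intervals are exact at 95% and floors use 3 counts. The members and lists were chosen with earlier results of these data known.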

Additional observations from a re-analysis of the deposited data

Results flagged for a closer look

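In 4 of the groups of 4 hashtag groups, 1 value stood far from the others by Dixon's criterion. *Nr4a3* in αβ T cells of *App* NL-G-F control was 37.1 CPM in hashtag 6, with the next group at 10.6 CPM. *Egr3* in ILC2 of *App* NL-G-F chronic colitis was 70.9 CPM in hashtag 7, with the next at 6.71 CPM. *Nr4a3* in NK cells of *App* NL-G-F food allergy was 48.7 CPM in hashtag 5, with the next at 20.5 CPM. *Egr3* in NK cells of WT control was 30.7 CPM in hashtag 4, with the next at 5.22 CPM. These are the gaps at a value of at least 20 CPM among 13 found in 198 sets, and about 1 in 20 sets exceeds the criterion by chance. The members were chosen on such values and each set holds hashtag groups of both kinds of pair, so the gaps are descriptions and not tests. The effect of chronic colitis on *Hsph1* in αβ T cells differed between the genotypes, with a log2 effect higher by 2.04 in *App* NL-G-F than in WT mice (SE 0.47, edgeR adjusted p = 0.0112).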

How the results depend on the processing

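Hashtag groups of a condition come from 1 library, and few cells per group limit *Egr2*, *Egr3* and *Nr4a3*. No paired analysis was possible because every library is replicate 1 and hashtag numbers do not tie samples across libraries; the macrophage-rich pair as a term is a division from the data and pairs no samples. Of 57 alternatives for levels and shares, 52 moved by less than the spread. Macrophage-poor αβ T cells summed to 419.7 CPM with the order-of-magnitude cutoff alone. The share of αβ T cells with *Dusp1* was 65.1% and 10.6% without thinning and 55.6% and 6.535% at 2000 UMIs (macrophage-rich and macrophage-poor). Without a filter on low counts, edgeR called members 11 times in αβ T cells, 2 in B cells and 8 in ILC2, and in interactions 2, 1, 2 and, in macrophages, 1. In B cells DESeq2 called 3, groups of at least 50 cells and the cutoff alone 0, and the macrophage-rich pairs only 3. In ILC2 groups of at least 50 cells and the macrophage-rich pairs only gave 5, and the macrophage-rich pair as a term 1; the fits of pairs were chosen after seeing the data. Leaving out 1 hashtag group gave 0 to 2 calls in B cells (2 without *App* NL-G-F control hashtag 7), 0 to 1 in macrophages (1 without *App* NL-G-F control hashtag 6) and 0 in 27 fits of αβ T cells and 25 of ILC2. The cutoff alone in ILC2 and macrophages, and groups of 50 cells in macrophages, could not be fitted. The causes were not tested.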

Other observations

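In γδ T cells of *App* NL-G-F control, hashtag 7 (41 cells) held *Nr4a1* at 3114 CPM, *Nr4a3* at 1526 CPM, *Nr4a2* at 447 CPM and *Egr3* at 248 CPM. Hashtag 6 of the same pair (51 cells) held *Nr4a1* at 49.7 CPM, *Nr4a3* at 44.2 CPM and *Nr4a2* at 27.6 CPM, and *Egr3* was at 0. *Nr4a1* had a UMI in 24 of the 41 cells, with up to 51 UMIs in 1 cell. *Dusp1* was alike in both groups, at 347.4 and 392.1 CPM, as was *Ier2*, at 391 and 370.0 CPM. *Cd163l1*, a marker of the gate, had a UMI in 40 of 41 and 50 of 51 cells.

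Rarer types held high member sums in the macrophage-rich pairs, pooled over libraries of both genotypes. In 185 mast cells the sum was 25202 CPM, and 5 macrophage-poor mast cells held 10 UMIs of the members. In haematopoietic progenitors it was 8700 CPM in 71 cells against 314 CPM in 93 macrophage-poor cells, and in basophils 11286 CPM in 18 cells against 724 CPM in 188 cells.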
